A study of Saccharomyces cerevisiae W303 with 24 samples.

Results

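Disome XVI is a haploid strain of budding yeast with an additional chromosome XVI. It was measured in 2 forms, with UBP6 and without it (disome XVI ubp6Δ), each on 1 dual-colour array against a reference RNA labelled wild-type. These 2 arrays were chosen by their labels out of 24 in the series and are compared here with the 11 other disomes (of chromosomes I, II, V and VIII and of each from IX to XV) and with the 11 other disomes that lack UBP6. Values are log2 ratios of strain over reference, so that 0 means equal RNA levels and 1 means a doubling in the strain. With 1 array per strain there is no replicate of disome XVI itself. The spread used below is therefore that among the other disomes, and a change was sought that the 2 arrays of disome XVI share. Genes of chromosome XVI, which are duplicated in both strains, are described apart from those of the other 15 chromosomes.

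All strains derive from W303 and were MATa haploids grown in rich medium (YEPD). In disome XVI the 2 copies of the chromosome are held by a HIS3 and a KanMX6 cassette, each of which disrupts MET12, so that no intact MET12 is left. In the strain list of the study the other disomes carry the same 2 cassettes in a gene or an intergenic site of their own extra chromosome, the wild-type strain carries them at ADE1 and LYS2, and UBP6 is replaced by CaURA3 in the ubp6Δ strains. The labels put the strain in the red dye on every array. On the ubp6Δ arrays the sign of the ratio was turned, because MET12, ADE1, LYS2 and the deposited table of per-sample values go against the labelled dyes on them. The direction of the duplicated chromosome on that array is set by this choice and is read only for its size.

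Yeast that gain a chromosome transcribe most of its genes in proportion to copy number, whereas many of the extra proteins that belong to complexes are degraded. Ubp6 is a deubiquitinating enzyme bound to the proteasome that slows the degradation of substrates. Chromosome XVI carries genes for ribosomal proteins, for Haa1, the activator of the response to weak acids, for Met31, a DNA-binding factor of the sulfur pathway, and for the chaperones Hsp82 and Sse1. Met12 is a methylenetetrahydrofolate reductase and has an isozyme, Met13, encoded on chromosome VII.

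The marker genes are given first, and on the ubp6Δ array the directions of MET12, ADE1 and LYS2 follow from the turned sign, for which they were used. The MET12 ratio was −6.19 in disome XVI and −3.76 in disome XVI ubp6Δ, against −0.42 to 0.03 (median −0.14) in the 11 other disomes and −0.10 to 0.25 (median 0.00) in the 11 other ubp6Δ strains. Both arrays thus stood far below all others. ADE1, disrupted in the wild-type strain, was at 7.41 in disome XVI, and on the disome XVI ubp6Δ array its reference signal of 7.63 was not well above background beside a strain signal of 2419. LYS2 was at 2.92 and 3.0. UBP6 was at −0.37 in disome XVI, within the −0.69 to 0.32 of the other disomes. UBP6 was not used for the sign. Its ratio was 2.23 in disome XVI ubp6Δ, above 0 in a strain labelled as lacking it, but both signals were low there, 268 intensity units for the strain and 65.1 for the reference, and the ratio ran from 0.60 to 3.78 in the other ubp6Δ strains. The reference signal of UBP6 on the disome XVI array was 4474. The reference RNA of the ubp6Δ arrays may therefore lack UBP6 too, and the labels do not settle it. Of the markers of MATa cells, STE2 had strain signals of 6805 and 3257 on the 2 arrays and MFA2 of 4089 and 6625, while the MATα genes MF(ALPHA)1 and STE3 had 24.8 and 17.6 and 138 and 56.0. A pair of markers did not separate in this way, the MATa gene AGA2 at 415 and 673 and the MATα gene SAG1 at 520 and 436.

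The arrays of disome XVI and disome XVI ubp6Δ gave values for 6052 and 6033 open reading frames, with median green intensities of 2044 and 931. Among the 24 arrays 83.2 to 99.1% of spots stood well above background. Disome XVI was hybridised on a slide with 4 ubp6Δ strains (I, II, V and VIII) and with no other disome, so that slide and strain cannot be told apart in the disomes. Disome XVI ubp6Δ shared its slide with 7 other ubp6Δ strains. The log2 reference signals of the disome XVI array correlated across genes with those of disomes XIII, XIV and XV at 0.981 to 0.983 and with those of disomes I to XII at 0.701 to 0.801. Single signals of disome XVI are therefore set against disomes XIII, XIV and XV below, and those of disome XVI ubp6Δ against its own slide.

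The ratios of the duplicated genes were close to 1 in size along the whole chromosome on both arrays, and above 0 in disome XVI, where no sign was turned. The mean log2 ratio of the duplicated genes was 0.94 ± 0.61 (SD over 481 genes) in disome XVI and 0.88 ± 0.51 (479 genes) in disome XVI ubp6Δ, which is 1.92-fold and 1.84-fold. The other disomes had means of 0.68 to 0.99 (median 0.82) and the other ubp6Δ strains of 0.59 to 0.98 (median 0.88). Disome XVI thus ranked second of 12 and disome XVI ubp6Δ eighth of 12. A ratio above 0.5 was found for 84.2% and 85.2% of the duplicated genes, and a ratio below 0 for 2.49% and 3.76%. No other chromosome had a mean outside −0.08 to 0.04 in disome XVI or −0.11 to 0.11 in disome XVI ubp6Δ.

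**Figure D1:**
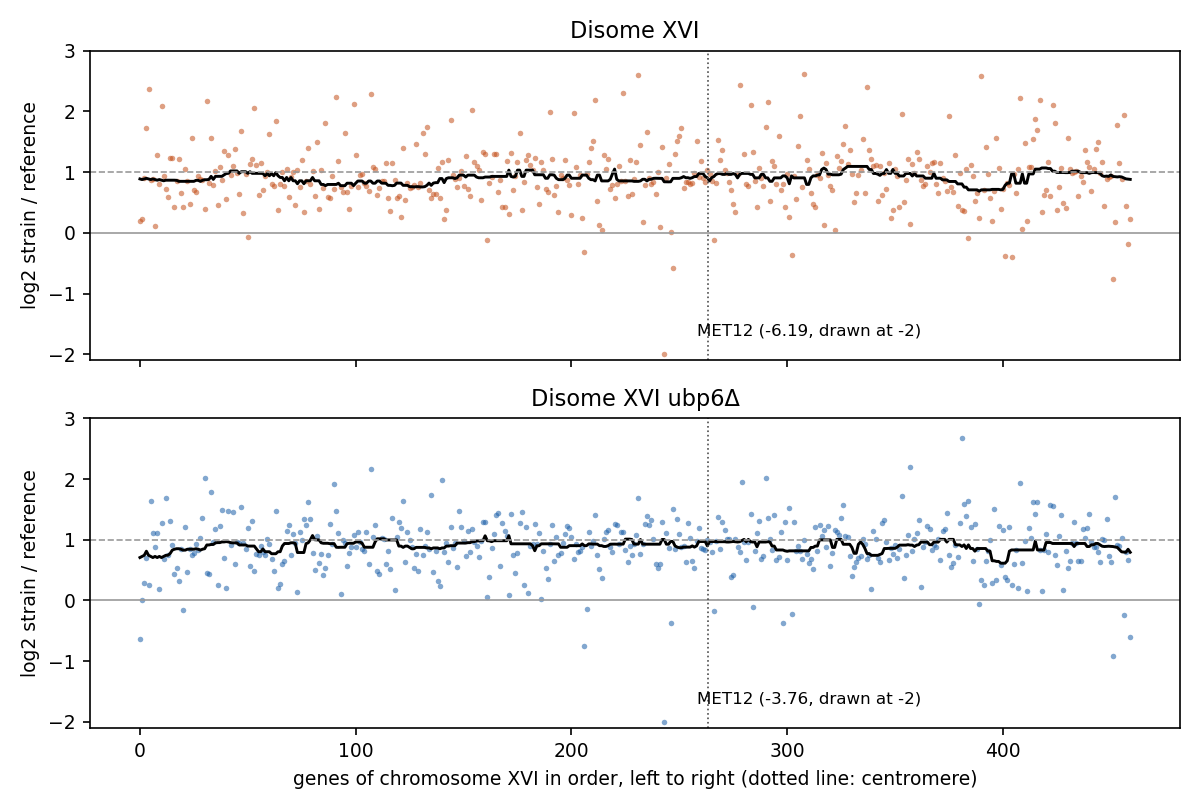
Log2 ratio of strain over reference (y axis) for the 460 tested genes of chromosome XVI in their order along the chromosome (x axis) in disome XVI (top) and disome XVI ubp6Δ (bottom). The black line is the median of 25 neighbouring genes, the dashed line marks 1 and the dotted line the centromere. The medians run close to 0.9 along both arms on both arrays, with MET12 far below.

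Ratios above 0.5 on both arrays were found for 347 of the 460 tested genes (75.4%), and 325 (70.7%) lay above all other strains of their genotype on both arrays. In 10 blocks of neighbouring genes, each holding 31 to 51 tested genes, the median ratio was 0.78 to 0.99 in disome XVI and 0.83 to 0.94 in disome XVI ubp6Δ. For each duplicated gene a response was computed as the mean of the 2 arrays minus the mean of the other pairs of arrays. It could be tested for 460 of the 490 open reading frames of chromosome XVI, and the other 30 had no value on one of the 2 arrays or too few other pairs. The median response was 0.98 (quartiles 0.81 and 1.14), or 1.98-fold, and lay between 0.5 and 1.5 for 406 of the 460 genes. In the other 11 karyotypes the median response ran from 0.75 to 0.99. The deviations of the 2 arrays from the other arrays correlated across the duplicated genes at 0.43, and at 0.22 without MET12. Genes are not independent replicates, and the 2 arrays share their probes.

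Tested against a response of 1 with limma over the duplicated genes of all 12 karyotypes, 3 of the 460 genes of chromosome XVI passed, 0.652%, against 0.753% of all 4115 duplicated genes. MET12, with both copies disrupted, had a response of −4.92 (SE 0.139). EGD1 had ratios of 2.61 in disome XVI and 1.68 in disome XVI ubp6Δ, against −0.10 to 0.56 and −0.23 to 0.52 in the other strains. It encodes the beta subunit of the nascent polypeptide-associated complex, which binds proteins as they leave the ribosome. Its response was 1.90 (SE 0.178, limma adjusted p = 0.0396), or 3.73-fold. YPR203W, an open reading frame near the end of the right arm, was at −0.18 and 0.66, just below the −0.12 to 0.95 of the other disomes and within the −0.38 to 0.75 of the other ubp6Δ strains, and its response was −0.13 (SE 0.204, limma adjusted p = 0.0281). The call was lost without disome II (response −0.14, limma adjusted p = 0.0538), against only disomes XIII, XIV and XV (limma adjusted p = 0.375), with the karyotype as a random block (limma adjusted p = 0.136) and on each array alone. At an unadjusted p under 0.05, 17 genes lay above 1 and 23 below it.

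The EGD1 ratio rested on different channels of the 2 arrays. Over the median of its array, the reference signal of EGD1 in disome XVI was lower by a log2 difference of −1.95 than the median of disomes XIII, XIV and XV, and its strain signal was higher by 0.39. In disome XVI ubp6Δ the reference signal differed by −0.23 from the arrays of its slide and the strain signal by 1.41. On the disome XVI ubp6Δ array alone the response of EGD1 was 1.52 (SE 0.257) and did not pass the test (limma adjusted p = 0.541), nor did the pair against only disomes XIII, XIV and XV (response 2.03, limma adjusted p = 0.439). The call was also lost when any one of disomes I, II, V, VIII, IX, X or XI was left out, with limma adjusted p of 0.0504 to 0.0678 and responses of 1.89 to 1.92. EGD2, which encodes the alpha subunit of the same complex on chromosome VIII, had ratios of 1.1 and 0.11 and was not past the test.

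At the upper end 11 genes had ratios above 1.5 on both arrays, chosen after their values were seen. OYE3, an NADPH dehydrogenase of the old yellow enzyme family, was at 2.29 and 2.17 (response 2.09, SE 0.643). Its ratio ran from −0.82 to 1.70 in the other disomes and from −1.17 to 0.91 in the other ubp6Δ strains, so that both arrays lay above the ranges. RHO1, the GTPase that controls cell wall synthesis, was at 2.10 and 1.56 (response 1.67, SE 0.218), TPO3, a polyamine exporter, at 1.55 and 1.62 (response 1.5, SE 0.221) and NCE102, an eisosome protein, at 2.23 and 1.94 (response 1.5, SE 0.470). The others were RPL36B, YPR027C, RDS3, CUR1, VMA11, EGD1 and YPR016W-A, the last not in the reference annotation. All but EGD1 were short of the test against 1. A ratio above 1.5 on disome XVI alone was commoner, 57 of the 460 genes against 29 on disome XVI ubp6Δ. Of the 57, 55 had a reference signal below those of disomes XIII, XIV and XV, 96.5%, compared with 53.9% of all tested duplicated genes, and the ratio that picks them contains that signal.

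At the lower end 24 genes had ratios of at most 0.5 on both arrays, again chosen after their values were seen. Besides MET12 they included ASN1 (asparagine synthetase) at −0.40 and 0.25, CAR1 (arginase) at −0.12 and 0.05 and DIP5 (an amino acid permease) at 0.42 and 0.44, none of which passed the test against 1. ASN1 varied from −1.76 to 0.37 in the other disomes, so that its response of 0.15 had an SE of 0.459. The glycogen phosphorylase gene GPH1 was at 0.35 and 0.15 (response 0.21, SE 0.972). The oligopeptide transporter gene OPT2 was at −0.76 and −0.92 (response 0.01, SE 0.878). LEE1, a zinc-finger gene, was at 0.05 and 0.37 and had a response of −0.29 (SE 0.286, limma adjusted p = 0.0644). The subtelomeric YRF1-7 and YPR204W and the seripauperin gene PAU22, also in the group, have near-identical copies elsewhere, so that their probes are uncertain. Of the 24, 6 were not in the reference annotation. The median response was 0.83 for the 26 tested open reading frames without annotation and 0.99 for the 434 with it.

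The 11 genes for cytosolic ribosomal proteins on chromosome XVI had a median response of 1.34, above the 0.98 of all 460, and ran from 0.74 for RPL1A to 1.57 for RPL5. None passed the test against 1. The 2 arrays differed for this group, with a median ratio of 1.5 in disome XVI and 0.89 in disome XVI ubp6Δ. RPS23B was at 2.58 and 0.34, RPL21B at 1.99 and 0.93, RPL43A at 1.93 and 0.81, RPL5 at 1.85 and 1.20 and RPS6A at 1.28 and 0.13, all higher in disome XVI. RPL36B ran the other way, at 1.56 and 1.78. In disome XVI the reference signal of all 11 genes lay below those of disomes XIII, XIV and XV (100% against 53.9% of the tested duplicated genes), by a median log2 difference of −1.38, while the strain signal was higher by 0.33. In disome XVI ubp6Δ the reference signal differed from its slide by −0.11 and the strain signal by 0.74. On the disome XVI array alone RPL43A and RPS23B passed the test (responses 1.95 and 2.36, limma adjusted p = 0.0227 and 0.00119), and on the disome XVI ubp6Δ array alone they were at 0.94 and 0.64.

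**Figure D2:**
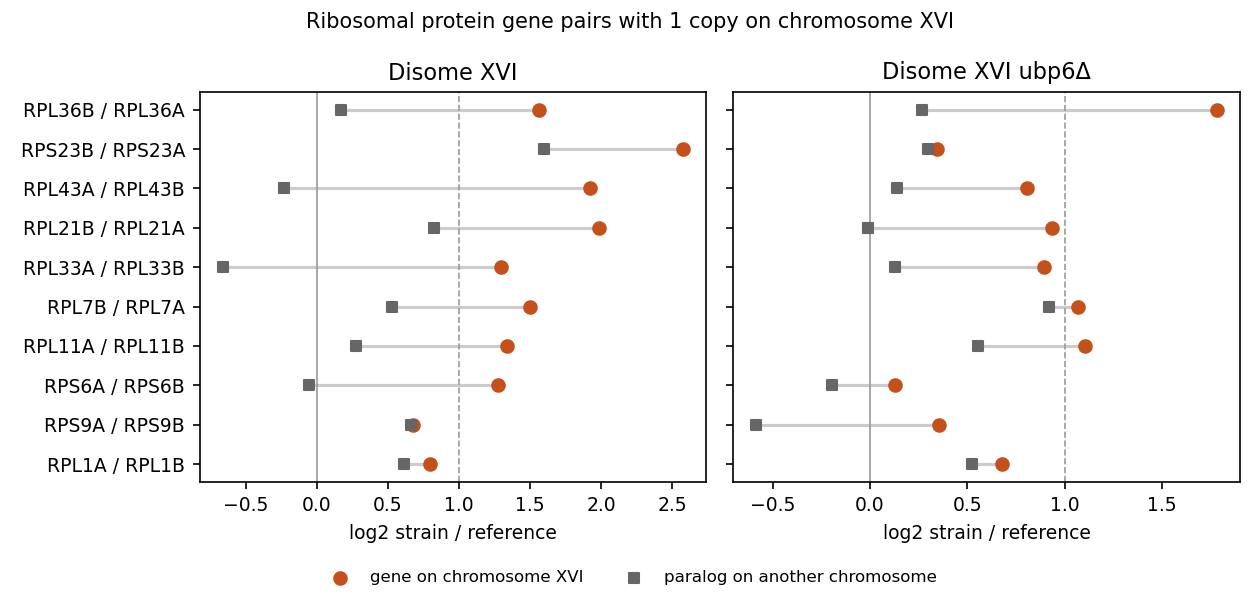
Log2 ratio of strain over reference (x axis) for 10 pairs of ribosomal protein genes (y axis), the circle for the gene on chromosome XVI and the square for its paralog on another chromosome, in disome XVI (left) and disome XVI ubp6Δ (right). The dashed line marks 1. RPS23A lies at 1.60 on the left and at 0.30 on the right.

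Of the 11 genes, 10 have a paralog on another chromosome that encodes the same or nearly the same protein, and RPL5 has none. In all 10 pairs the gene on chromosome XVI had the higher difference from the other pairs of arrays, with a median of 1.33 against 0.13 for the paralogs. The paralogs RPS23A and RPL1B lay above all other strains on both arrays. RPS23A was at 1.60 and 0.30, against highest values of 0.47 and 0.27 elsewhere, and RPL1B was at 0.61 and 0.52, against 0.32 and 0.20. Neither passed the test (difference 0.88, SE 0.163, and 0.53, SE 0.138, limma adjusted p = 0.561 and 0.690). The elongation factor gene TEF2 on chromosome II stood likewise at 1.60 and 0.63, against 1.1 and −0.16 at most in the other strains (difference 1.16, SE 0.257), and its twin TEF1 on chromosome XVI at 1.12 and 1.00. A probe for either member of such a pair can also bind RNA of the other, and the part of this was not tested. OYE2, on chromosome VIII, lay on the other side, at −0.88 and −0.46, just below all other strains, where its paralog OYE3 was high. In disome XVI the reference signal of OYE2 was higher by 0.44 than in disomes XIII, XIV and XV, and its strain signal differed by −0.04. In disome XVI ubp6Δ the reference signal differed from its slide by 0.02 and the strain signal by −0.20.

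Of 32 on the list of regulators of chromosome XVI, 31 were tested, with a median response of 1.01 and a range from 0.10 for USV1 to 1.41 for SWI1, and none passed the test against 1. HAA1 was at 1.03 and 1.16 (response 1.07, SE 0.195). MET31 was at 1.17 and 1.08 (response 1.28, SE 0.174). ROX1, the repressor of hypoxic genes, was at 1.76 and 1.06. GCR1, the activator of glycolytic genes, was at 0.34 and 0.75 (response 0.61, SE 0.222), and FHL1, which binds promoters of ribosomal protein genes, at 0.87 and 0.22 (response 0.44, SE 0.358). USV1 was at 1.13 and 0.56, but reached 2.20 in another disome, so that its response was low with an SE of 0.475.

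Among chaperones, HSP82 was at 1.29 and 1.48 (response 1.28) and SSE1 at 1.29 and 1.41 (response 1.17). The proteasome genes PRE2 and RPN7 were at 1.21 and 1.33 and at 0.99 and 1.18. In other complexes the ratios of the 2 arrays lay further apart. The vacuolar ATPase gene VMA13 was at 0.42 and 1.29 and VMA11 at 1.68 and 1.53, with responses of 1.19 and 1.02. Of the 4 RNA polymerase genes, with responses of 0.91 to 1.30, RPC82 was at 0.45 and 1.00. Of the 5 genes for mitochondrial ribosomal proteins, with responses of 1.01 to 1.34, MRP2 was at 1.81 and 0.75. The 12 ribosome biogenesis genes had a median response of 0.96. BMS1, a GTPase needed for the small subunit, was at 0.37 and 0.20 (response 0.31, SE 0.295) and TIF6, needed for the large subunit, at 2.43 and 0.79 (response 1.5, SE 0.426). Apart from MET12, the sulfur genes SAM3 and MET16 had responses of 0.74 and 0.66. None of these genes but MET12 passed the test.

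On the other 15 chromosomes no gene differed from the other karyotypes by the test on both arrays together. Of 5249 genes tested with limma, 0 were called (0%), 211 had an unadjusted p under 0.05, and 199 of these deviated the same way on both arrays (3.79%), 82 higher and 117 lower. The smallest adjusted p was 0.561. In the same fit the other karyotypes gave 0 to 110 calls with a median of 0. Random block fits over all 24 arrays called 0 genes with the karyotype as block and 3 with the slide as block, all higher. The deviations of the 2 arrays correlated across these genes at 0.10, against −0.06 to 0.65 (median 0.35) in the other 11 karyotypes. The spread of the ratios was within that of the other strains, with an SD of 0.52 in disome XVI (0.44 to 0.66 elsewhere) and 0.45 in disome XVI ubp6Δ (0.38 to 0.58).

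On the disome XVI array alone, 73 of 5312 genes passed limma against the 11 other disomes (1.37%), 69 higher and 4 lower, with 554 at an unadjusted p under 0.05. On the disome XVI ubp6Δ array alone 0 of 5504 passed, with 160 at an unadjusted p under 0.05. The 69 genes had a median ratio of 1.34 in disome XVI and of −0.04, −0.13 and −0.07 in disomes XIII, XIV and XV, all 69 lying above those 3 arrays. In disome XVI ubp6Δ their median was 0.07, and 21 of them lay above the mean of the other ubp6Δ strains. Among them were 9 ribosomal protein genes and, named after their values were seen, ILV5 of branched-chain amino acid synthesis at 2.64 and 0.36, the cell wall gene CCW12 at 2.77 and 0.63 and HYP2, the translation factor eIF5A, at 2.26 and 0.14. The reference signal over the array median was below those of disomes XIII, XIV and XV for 68 of the 69 genes (98.6%), against 33.5% of all genes tested. These genes were picked by a ratio that contains that signal. The median log2 difference was −1.19 in the reference channel and 0.15 in the strain channel. Because of that choice the low reference signal is not read as a cause of their gain, and the cause was not tested. As a set, the gain of these genes was not shared by disome XVI ubp6Δ.

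**Figure D3:**
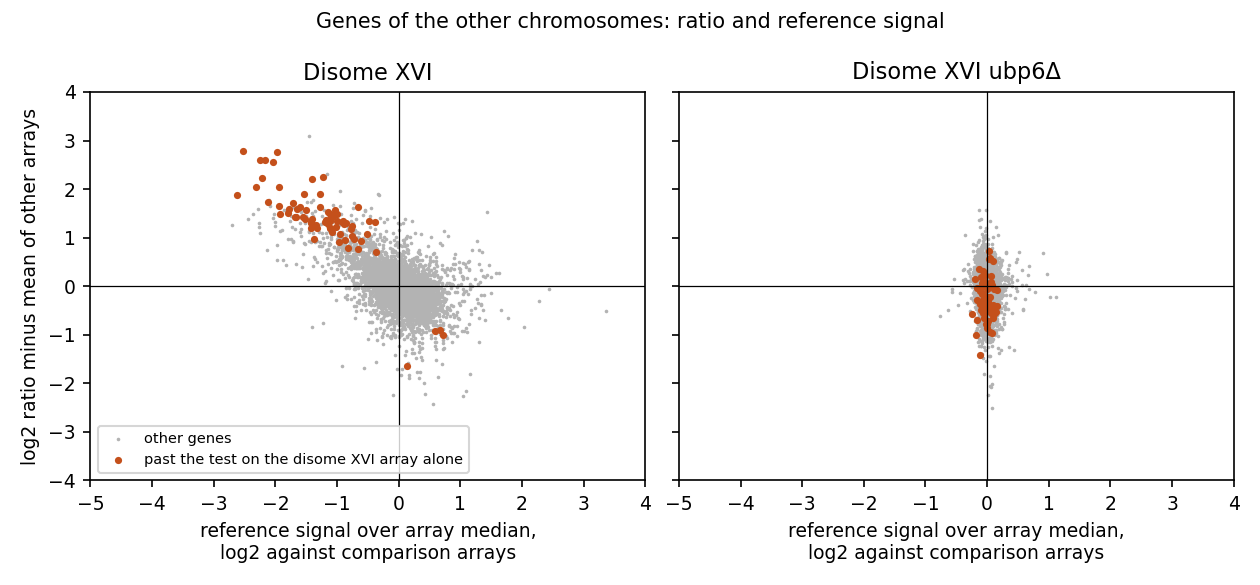
Log2 ratio less the average over the other strains of the genotype (y axis) against the log2 reference signal relative to comparison arrays (x axis) for genes outside chromosome XVI, on the disome XVI array (left, compared with disomes XIII, XIV and XV) and the disome XVI ubp6Δ array (right, compared with the 7 other arrays of its slide). Orange marks the 73 genes past the test on the disome XVI array alone. On the left 69 of them are raised, nearly all with a lowered reference signal, which enters both axes, and on the right 21 of the 69 lie above 0.

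The ribosomal protein genes of the other chromosomes also differed between the 2 arrays. Their median ratio was 0.25 in disome XVI, above the −0.12 to 0.13 of all other disomes, and −0.12 in disome XVI ubp6Δ, ninth of 12. Of 125 tested, 36 deviated upwards on both arrays (28.8%, against 22.7% of all 5249 genes) and 10 downwards (8.00%, against 30.5%), and none was called. Their reference signal in disome XVI lay below disomes XIII, XIV and XV by a median of −0.35, and their strain signal differed by 0.00.

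The groups of genes that deviated the same way on both arrays were described by range. Above all other strains of their genotype on both arrays were 47 genes of the other chromosomes (0.895%), and below them 98 (1.87%). No one of them passed the limma test, and they are named after their values were seen, apart from list members.

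Genes of methionine and sulfur metabolism were low in both strains. Their median ratio was −0.60 in disome XVI, where the other 11 disomes had −0.45 to 0.19, and −0.67 in disome XVI ubp6Δ, where the other 11 had −0.53 to 0.05. Both were below every other array, and the 7 other arrays of the slide of disome XVI ubp6Δ were among those at −0.53 to 0.05. Disomes XIII, XIV and XV had −0.27, 0.11 and 0.19. Of 31 genes tested outside chromosome XVI, 20 deviated downwards on both arrays (64.5%, against 30.5% of all genes) and 2 upwards, and the median difference from the other pairs was −0.42, against −0.02 over all 5249 genes. None was called by limma, and 3 had an unadjusted p under 0.05. In both strains the shift lay in the strain channel, with a median of −0.46 in disome XVI and −0.33 in disome XVI ubp6Δ, and 0.09 and −0.01 in the reference channel. As chromosome XVI carries the broken MET12 only in these strains, the marker and the extra chromosome cannot be told apart.

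Of the 31 sulfur genes, 4 lay below all other strains on both arrays, beside 98 of all 5249 genes (1.87%). MMP1, the permease of S-methylmethionine, was at −1.08 and −1.08, against lowest values of −0.19 and −0.92 elsewhere (difference −1.05, SE 0.338). MET17, which makes homocysteine from O-acetylhomoserine and sulfide, was at −0.91 and −1.46, against −0.80 and −1.11 (difference −0.94, SE 0.412). MET5, a subunit of sulfite reductase, was at −0.99 and −1.78 (difference −0.99, SE 0.463), and SAM2, an S-adenosylmethionine synthetase, at −0.89 and −0.58 (difference −0.48, SE 0.318). MHT1, off the list, takes a methyl group from S-methylmethionine to homocysteine and was at −0.83 and −1.55, also below all others. MET2, of homoserine acetylation, was at −1.71 and −1.48 and MET14, the adenylylsulfate kinase, at −0.81 and −1.72, in each case below the others on 1 array only. The Met12 isozyme gene MET13 was at 1.72 and 0.09 (difference 0.61, SE 0.542). In disome XVI its reference signal was lower by −2.02 than in disomes XIII, XIV and XV and its strain signal differed by −0.07.

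**Figure D4:**
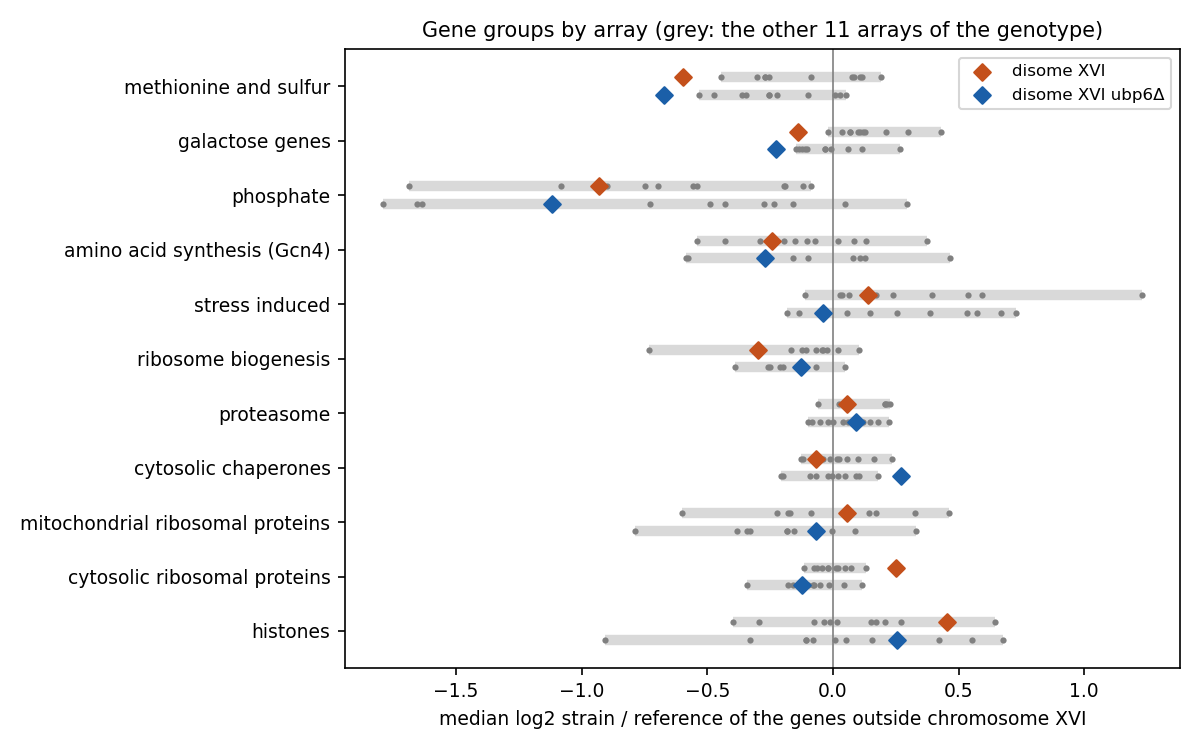
Median log2 ratio of strain over reference (x axis) for 11 gene groups (y axis), over their genes outside chromosome XVI. Diamonds are disome XVI and disome XVI ubp6Δ, small points the other 11 arrays of the genotype and the grey band their range. Only the methionine and sulfur genes and the galactose genes lie below the band on both arrays.

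The galactose genes, with group medians over up to 7 genes, were also below every other array. They were at −0.14 against −0.02 to 0.43 and at −0.23 against −0.15 to 0.27. Over the 5 genes tested the median difference was −0.28. GAL1, the galactokinase gene, was at −0.72 and −0.41, inside the range of the others on both arrays. In rich glucose medium these genes are repressed. Of 9 histone genes, 7 deviated upwards on both arrays (77.8%, against 22.7% of all genes) and 0 downwards. As pair means, histone genes were higher than the mean of the other pairs in 9 of 9, against 2425 of all 5249 genes. Their median difference was 0.28, and none was called. In disome XVI their reference signal lay below disomes XIII, XIV and XV by a median of −0.36, and their strain signal differed by 0.06. In disome XVI ubp6Δ the reference signal differed from its slide by −0.05 and the strain signal by 0.30. HTB2, of histone H2B, was at 0.43 and 0.89, against highest values of 0.37 and 0.80 elsewhere, and HTZ1, of the variant H2A.Z, at 0.34 and 0.33, against 0.05 and 0.21. As a group they were inside the range of the other strains, since disome XIII had 0.65 and 0.68 where disome XVI had 0.45 and disome XVI ubp6Δ 0.25. The 17 phosphate genes had a median difference of −0.41, with 12 downwards on both arrays (70.6%, against 30.5% of all genes) and 0 upwards. Disomes X and XIII, however, had phosphate group medians of −1.08 and −1.69, below the −0.93 of disome XVI.

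Genes that respond to Haa1 were looked at because HAA1 itself is duplicated. Of 8 tested outside chromosome XVI, 4 deviated upwards on both arrays and 2 downwards, with a median difference of 0.01. TPO2, a polyamine exporter and the paralog of TPO3, was at 1.85 and 1.72, against −0.70 to 1.42 (median 0.61) and 0.02 to 1.31 (median 0.80) in the other strains (difference 1.16, SE 0.504). Both arrays were above all others. Its strain signal was higher by 0.47 against disomes XIII, XIV and XV and by 0.60 against its slide, and the reference signal differed by −0.19 and −0.14. YRO2, a plasma membrane protein, was at 3.25 and 1.87 and YGP1, a secreted glycoprotein, at 1.32 and 1.65, but both varied widely elsewhere, YRO2 from −1.39 to 2.73 in the other disomes and YGP1 from −1.44 to 3.45. MSC1 and GPG1 had differences of −0.67 and −0.57.

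**Figure D5:**
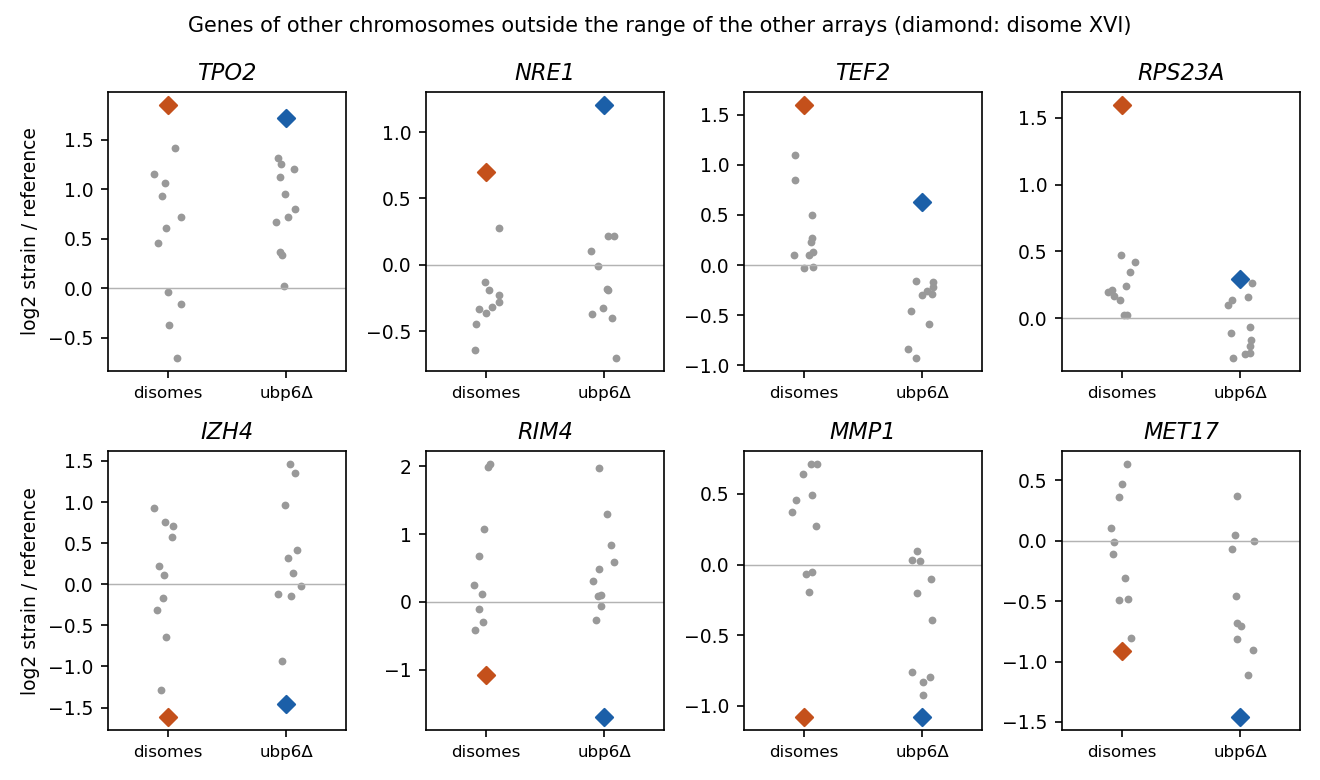
Log2 ratio of strain over reference (y axis) for 8 genes of other chromosomes in the disomes and the ubp6Δ strains (x axis). The diamond is disome XVI or disome XVI ubp6Δ and grey points are the other strains of the genotype. TPO2, NRE1, TEF2 and RPS23A lie above all other strains on both arrays, and IZH4, RIM4, MMP1 and MET17 below. On the disome XVI array the strain signals of TEF2 and RPS23A were not raised against disomes XIII, XIV and XV.

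NRE1, a short-chain dehydrogenase gene on chromosome IX, was at 0.70 and 1.21, against −0.64 to 0.28 and −0.70 to 0.22 elsewhere (difference 1.16, SE 0.230, limma adjusted p = 0.561). The difference lay in the strain signal on both arrays, at 1.06 and 1.30, with 0.06 and −0.13 in the reference. NRE1 passed with the 24 arrays fitted without a block, with the slide as a block and with p-values adjusted together with the genes of chromosome XVI (limma adjusted p = 0.0430, 0.0265 and 0.00987). It did not pass with the karyotype as a random block (limma adjusted p = 0.169). The fit without a block takes the 2 arrays of a karyotype as independent. The joint adjustment left the difference and SE of NRE1 unchanged and added the duplicated genes, which differ from 0 through their extra copy. Among genes of arginine synthesis, ARG3, of ornithine carbamoyltransferase, was at 0.36 and −0.23, where the others had −2.67 to −0.20 and −2.65 to −0.77, and ARG56, of the acetylglutamate pathway, was at 0.41 and 0.30, where they had −1.58 to 0.12 and −1.56 to −0.02. The differences were 1.38 (SE 0.649) and 0.97 (SE 0.468). ARG1 was at 0.39 and 0.23 with a difference of 1.29 (SE 0.730), above the other disomes but not above all other ubp6Δ strains. Only these high genes of arginine synthesis are described, so they do not stand for the pathway. The Gcn4 list of amino acid synthesis, given below, deviated downwards more often than upwards. STP4, a zinc-finger gene, was at 0.83 and 1.16, and UBC4, a ubiquitin-conjugating enzyme, at 0.80 and 1.11, both above all others.

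Among the genes below all other strains, RIM4, an RNA-binding regulator of meiosis, was at −1.09 and −1.71, against lowest values of −0.42 and −0.26 (difference −1.98, SE 0.706). The 4 IZH genes, a family chosen after the values were seen, did not run one way and none passed the test on both arrays together. IZH4 was at −1.62 and −1.46 (difference −1.76, SE 0.627), IZH1 at −0.61 and −0.57 (difference −0.71, SE 0.215) and IZH2 at −0.35 and −0.08, below lowest values of −0.31 and −0.07 elsewhere. IZH3 was at 2.29 and 1.02. It was among the 69 genes with a raised ratio on the disome XVI array, where its reference signal was lower by −2.22. The ABC transporter genes SNQ2, YOR1 and YCF1 were at −0.74 and −0.60, −0.59 and −1.28, and −0.55 and −0.58, with differences of −0.83 (SE 0.225), −0.86 (SE 0.279) and −0.63 (SE 0.210). PUT1, the proline oxidase gene, was at −0.62 and −0.21, against lowest values of −0.22 and −0.05 elsewhere.

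Genes of amino acid synthesis on the Gcn4 list deviated downwards more often than upwards. Of 45 tested, 23 deviated downwards on both arrays (51.1%, against 30.5% of all genes) and 8 upwards (17.8%, against 22.7%). The median difference was −0.12, and none was called. The nitrogen assimilation genes GLT1, glutamate synthase, and GDH1, glutamate dehydrogenase, were at −0.71 and −1.09 and at −1.30 and −1.21 (differences −0.93, SE 0.310, and −0.87, SE 0.399). BAT2, of branched-chain transamination, was at −1.71 and −0.65 and SER3, of serine synthesis, at −0.54 and −0.78. On the duplicated chromosome GLN1, the glutamine synthetase gene, was at 0.80 and −0.37 (response 0.22, SE 0.452).

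Of 88 stress-induced genes tested, 45 deviated downwards on both arrays (51.1%, against 30.5% of all genes) and 16 upwards (18.2%, against 22.7%), with a median difference of −0.23. The group median was 0.14 in disome XVI, seventh of 12 among −0.11 to 1.23 in the other disomes, and −0.04 in disome XVI ubp6Δ, ninth of 12 among −0.18 to 0.73. Disomes V, VIII, X, XI and XII were below disome XVI. CTT1, the cytosolic catalase gene, was at −0.24 and −0.35, just below the −0.23 to 1.83 and −0.34 to 1.89 of the others. Disomes XIII, XIV and XV had group medians of 0.54, 0.59 and 1.23. Cytosolic chaperone genes outside chromosome XVI had median differences of 0.04 and had group medians of 0.27 in disome XVI ubp6Δ, above the −0.21 to 0.18 of the others, and −0.07 in disome XVI. Proteasome, respiratory, ergosterol and glycolytic genes had median differences of 0.05, 0.06, −0.11 and −0.01, with 0 called by limma in each group. Of 23 ergosterol genes, 12 deviated downwards on both arrays (52.2%) and 4 upwards.

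The 2 genotypes were compared by taking, within each karyotype, the ubp6Δ array minus the disome array. As the reference RNA of the ubp6Δ arrays may lack UBP6 too, this contrast may not hold the effect of losing UBP6. Against the other 11 pairs, 1 of 5709 genes differed in disome XVI, MET12 (0.0175%), from 0.18 on average in the other pairs to 2.43 in disome XVI, a difference of 2.25 (SE 0.232, limma adjusted p = 0.000776). Its strain signal was 108 intensity units in disome XVI and 229 in disome XVI ubp6Δ, at percentiles 11.7 and 20.4 of the array, and the reference signal was 7910 and 3100. The sign of the MET12 ratio in disome XVI ubp6Δ follows from the turned sign, for which MET12 was used. At an unadjusted p under 0.05, 160 genes lay higher and 301 lower. The ribosomal protein genes of chromosome XVI had medians of 1.5 in disome XVI and 0.89 in disome XVI ubp6Δ. The 69 genes of other chromosomes had 1.34 and 0.07. Both sets had low reference signals on the disome XVI array, and the 69 genes were picked by a ratio that contains that signal.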

How the data were processed

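RNA was amplified, labelled and hybridised by the authors and the arrays were read with Feature Extraction 10.7.1.1. The deposited intensity values are processed signals of each dye, after the scanning software removed background and balanced the dyes. Their ratio, red over green, was deposited as log10. A table of per-sample values deposited by the authors follows these ratios on a log2 scale (r 0.976 to 1.00). No column of comparisons was used.

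The log10 ratios were converted with a factor of 3.32. Spots that were controls, were marked as outliers or exceeded background in neither channel were left out before averaging to probes and to open reading frames. Of 6176 open reading frames, 5718 matched the RefSeq R64 annotation by systematic name. The sign was turned on the 12 ubp6Δ arrays. Limma 3.58.1 (R 4.3.3) was fitted to the means of a disome and its ubp6Δ strain, disome XVI against the other pairs, with at least 6 of these and with values of a strain's own extra chromosome left out. P-values were two-sided and adjusted by the Benjamini-Hochberg method with 0.05 as threshold, and rest on the spread among the other karyotypes. The 2 arrays of a number share a karyotype by design. Their deviations correlated at −0.05 to 0.64 (median 0.32), and at 0.12 for disome XVI. The disome XVI array correlated more with the ubp6Δ array of another karyotype, at up to 0.46. Between different karyotypes the median was −0.04. Alternatives were normexp background correction (offset 50) with loess, no background filter, outlier spots kept, median centring, the deposited table, robust variance, other blocks, single arrays and left-out karyotypes. The fit was tested on simulated data. Genes named by rule are the markers, those past a test, the listed ribosomal protein genes and paralogs, the regulators of chromosome XVI and up to 4 members of each list with the largest deviations, and those chosen after their values were seen are said to be so. Members, lists and tests were chosen with earlier results of these data known. The number of arrays limits the precision.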

Additional observations from a re-analysis of the deposited data

Results flagged for a closer look

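The difference between the 2 genotypes in MET12 stood out because the contrast of ubp6Δ against disome differed from that in the other karyotypes by the limma test itself. It was 2.25 on the log2 scale (SE 0.232), with MET12 at −6.19 in disome XVI and −3.76 in disome XVI ubp6Δ. The value was 2.22 to 2.96 under the 18 alternatives run for it. All of them hold the ubp6Δ arrays in the turned direction, for which MET12 was used, so its direction is not tested by them. Both values are far below 0, and the strain signal was 108 and 229 intensity units.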

How the results depend on the processing

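The mean ratio of the duplicated genes ran from 0.93 to 1.01 over 5 alternatives in disome XVI, and in disome XVI ubp6Δ it moved from 0.88 to 0.74 with normexp and loess and was 0.86 to 0.93 in the other 4. The call of 0 genes on the other chromosomes became 73 (69 higher) on the disome array alone, 14 when p-values were adjusted together with the genes of chromosome XVI, 3 with the slide as random block and 1 in 24 arrays with no replicate block, and was 0 in the other 22 alternatives, each left-out karyotype and the karyotype as random replicate block (0) among them. The adjustment together with chromosome XVI includes its duplicated genes, which differ from 0 through their extra copy. The 3 duplicated genes that differed from 1 became 26 with normexp and loess, 8 without the background filter, 13 with no replicate block, 16 with the slide block and 8 on the disome array alone. They became 1 on the ubp6Δ array alone, on its own slide (chosen after seeing the data) and against disomes XIII, XIV and XV only. With the karyotype as replicate block they were 4, and without 1 karyotype 1 to 6 (1 without disome II, 6 without XII, XIII or XV). The 1 gene with a different contrast of ubp6Δ against disome became 3 with normexp and loess and 2 without the background filter. The count was 9 against disomes XIII, XIV and XV, and stayed 1 in each left-out karyotype. The counts of 47 and 98 genes outside the range of the other strains became 46 to 63 and 82 to 103, chosen after seeing the data. The side of 1 on which 6 ribosomal protein genes of chromosome XVI lay changed, with none past the test there, on single arrays or with fewer karyotypes: RPS9A 1.17 against disomes XIII, XIV and XV, RPS6A 1.49 on the disome array, and on the ubp6Δ array (its own slide second) RPL7B 0.49 and 0.26, RPL43A 0.94 and 0.90, RPL11A 0.81 and 0.81 and RPS23B 0.64 and 0.66. The 23 named genes of other chromosomes kept their direction in 528 refits, single arrays not among them, and 7 passed the test (NRE1 in 3, TEF2 in 2, RPS23A and RPL1B in 1 each). The causes were not tested.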
